A study of Mus musculus with 2 samples.

Results

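Mir21a and Mir210 are 2 of the 1973 microRNA (miRNA) genes counted by small RNA sequencing of embryonic mouse lung. They were taken by name, as the gene of the widely expressed miR-21 and the gene of the low-oxygen miRNA miR-210. Lungs came from B6NCrl embryos of 14.5 days (E14.5), and total RNA was sequenced in the size class under 30 nt. The 2 libraries form 1 group with no treatment, mutation or other age named, so no condition can be compared. The labels describe each library as a single lung of 1 pup, yet give the sex as pooled male and female, so whether a library holds more than 1 embryo is not settled. Each replicate has a collection day of its own, and the day cannot be told apart from the replicate.

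A miRNA is cut from a hairpin precursor and guides Argonaute proteins to messenger RNAs that pair with its seed, the bases 2 to 8 from its 5′ end. miR-21 is a stable, widely expressed miRNA that rises in injured, inflamed and tumour tissue and lowers growth-restraining genes such as Pdcd4, Spry1 and Reck; in adult lung it is raised in fibroblasts during fibrosis. miR-210 is the best known target of hypoxia-inducible factors among miRNAs and lowers genes of mitochondrial respiration, such as the iron-sulfur scaffold gene Iscu, when oxygen is short. The lung of a mid-gestation embryo branches in a fluid-filled, low-oxygen environment, ahead of any air breathing.

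The mature sequences of both hairpin arms are shown because the seed sets which messenger RNAs each miRNA can pair with; the seed is in capitals. They come from RefSeq on GRCm38.p6 (mm10), whose table held both genes.

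miR-21a-5p: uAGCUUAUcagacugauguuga

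miR-21a-3p: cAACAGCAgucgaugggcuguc

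miR-210-3p: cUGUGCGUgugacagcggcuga

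miR-210-5p: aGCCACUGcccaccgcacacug

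The arms named first, miR-21a-5p (chr11:86584120-86584141, minus strand) and miR-210-3p (chr7:141221407-141221428, minus strand), are those known as the main products. All 4 mature forms are 22 nt long, so CPM compares these genes without a correction for length. They differ in composition: GC made up 36.4% of miR-21a-5p and 63.6% of miR-210-3p, against a median of 52.2% over the 1738 mature miRNAs of the RefSeq table. The deposited counts are per gene, and the arms of a hairpin are not told apart.

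The mouse has relatives of miR-21a by name, and they are shown because reads of a near-identical copy could be assigned to the wrong gene. Here capitals mark the longest run shared with miR-21a-5p.

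miR-21c: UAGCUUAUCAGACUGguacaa

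miR-21b: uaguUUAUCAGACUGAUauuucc

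miR-21c shares the seed of miR-21a-5p and a run of 15 nt with it, and miR-21b a run of 13 nt but not the seed. Mir21c (chromosome 8) and Mir21b (chromosome 3) each had 0 counts in both libraries, which allows up to 3 counts, or 1.29 CPM in replicate 2 and 0.585 CPM in replicate 1. No other mature miRNA of the table carried the seed of miR-21a-5p, and none shared that of miR-210-3p. The longest run of miR-210-3p in any of the 1004 other RefSeq hairpins was 10 nt, against 15 nt for miR-21a-5p. Neither member shared 20 nt of hairpin with another listed miRNA gene, as 923 genes did. Reads that mapped to several places were given to no gene, and made up 33.1% of reads in replicate 2 and 32.9% in replicate 1. Copies of the mature sequences elsewhere in the genome were not searched.

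Both genes stand alone on their chromosomes. Mir21a (ENSMUSG00000065455) lies at chr11:86584067-86584158 on the minus strand of mm10, inside the 3′ UTR of the last exon of Vmp1, a gene of autophagy that runs on the same strand. Mir210 (ENSMUSG00000065551) lies at chr7:141221384-141221493 on the minus strand, outside any other annotated gene, 2726 bp from Rassf7. The nearest listed miRNA gene to Mir21a was Mir301, 528846 bp away, with 3454 counts in replicate 2 and 6123 in replicate 1. The nearest to Mir210 was Mir7063, 399208 bp away, with 3 and 2 counts. Of the 187 genes whose mean reached 100 CPM, 118 (63.1%) had another listed miRNA gene within 10000 bp, and both members belong to the other 69.

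Mir21a was one of the abundant miRNA genes of E14.5 lung, and Mir210 was clearly present at a moderate level. Replicate 2 held 29321 Mir21a counts of 2332032 on the gene strand, and replicate 1 held 63147 of 5128214. That is 12573 CPM in replicate 2 (95% exact binomial interval 12430.5 to 12717) and 12314 CPM in replicate 1 (12218 to 12409.5), where CPM is counts per 1000000 gene-strand counts of all miRNA genes. The mean was 12443 ± 184 CPM (SD, n = 2). The intervals cover counting error only, since amplified reads need not be separate molecules. Mir210 had 999 counts in replicate 2 and 2325 in replicate 1, or 428 CPM (402 to 456) and 453 CPM (435 to 472). Its mean was 441 ± 17.7 CPM (SD, n = 2). Both libraries gave each gene nearly the same level. In lung tissue as a whole, fewer cells that express a miRNA cannot be told apart from less of it per cell.

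Mir21a was the gene of rank 18 by mean CPM, at rank 19 in replicate 2 and 18 in replicate 1. It held 1.26% of gene-strand counts in replicate 2 and 1.23% in replicate 1. Counted against all reads, mapped or not, these shares were 0.645% and 0.619%. Mir143, the smooth muscle miRNA gene at the top of the list, was 5.58 times higher by mean CPM. Mir210 was of rank 132 by mean CPM, at rank 132 in replicate 2 and 128 in replicate 1. It held 0.0428% of gene-strand counts in replicate 2 and 0.0453% in replicate 1. In both libraries 320 genes reached 10 counts. Mir21a stood at 63.8 times and Mir210 at 2.26 times the median CPM of those genes. Mir21a lay above 94.4% of those genes and Mir210 above 58.8%.

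**Figure D1:**
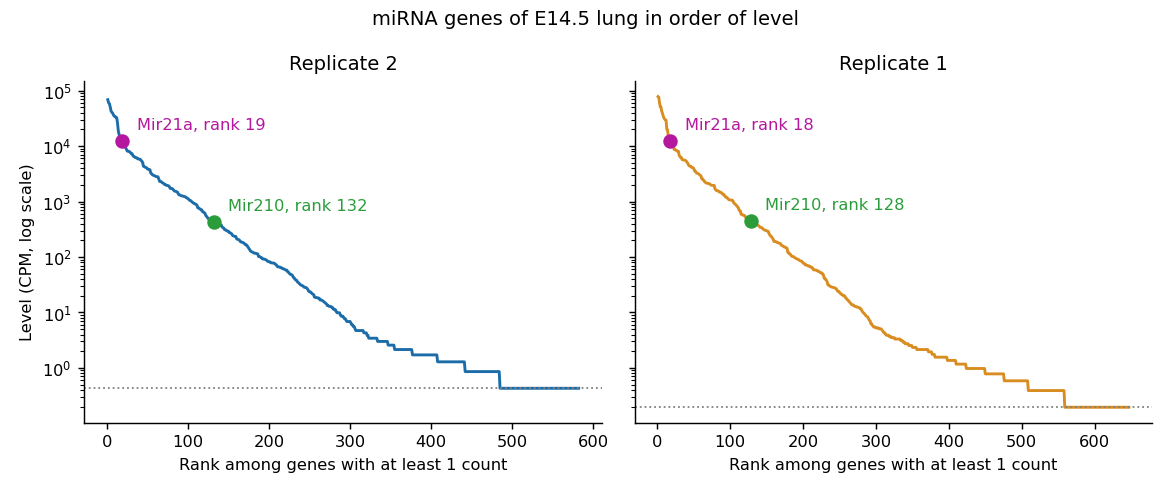
Level of each miRNA gene with at least 1 count in CPM (log scale) against its rank, for replicate 2 (left) and replicate 1 (right); the dotted line is the level of 1 count. Mir21a sits on the steep upper part at 12573 and 12314 CPM, and Mir210 midway along the slope at 428 and 453 CPM.

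Within each library Mir21a exceeded Mir210 by more than an order of magnitude. Replicate 2 gave 29.4 Mir21a counts per Mir210 count (95% exact binomial interval 27.6 to 31.3), and replicate 1 gave 27.2 (26.1 to 28.3). The intervals overlap. The log2 ratio of Mir21a to Mir210 was 4.82 ± 0.08 (SD, n = 2), a difference in level that needs no scaling between libraries. It compares read counts of 2 sequences of unlike GC content, and how readily each was captured in the libraries was not measured.

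The genes next to Mir21a in rank were members of abundant families, and only some were separated from it by more than the libraries differed. Directly above were Mir20a of the miR-17~92 cluster (16128 CPM in replicate 2 and 12413 in replicate 1), Mirlet7d (13960 and 14407) and the epithelial Mir429 (13319 and 14949). Directly below were Mir30a (14013 and 10778), Mir23a (10954 and 11891) and the epithelial Mir200c (11566 and 10196). Mirlet7d and Mir429 were higher than Mir21a in both libraries, and Mir23a and Mir200c were lower in both, with ranges that did not overlap that of Mir21a. Mir20a was also higher than Mir21a in both libraries, but by little in replicate 1 (12413 against 12314 CPM), and its range overlapped that of Mir21a. Mir30a was higher than Mir21a in replicate 2 and lower in replicate 1, so their order is not settled by 2 libraries. The hairpin of Mir23a has a run of 20 nt in common with another one, so reads from that run would be counted for neither.

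Mir210 stood among miRNAs of unrelated origin, most of them not separable from it. Above were Mir20b (516 CPM in replicate 2 and 382 in replicate 1), Mir34a, a miRNA gene induced by p53 (482 and 410), and Mir323 of the imprinted Dlk1-Dio3 region (424 and 458). Below were Mir148b (437 and 396), Mir125b-2 (394 and 408) and Mir31 (411 and 386). The ranges of Mir20b, Mir34a, Mir323 and Mir148b overlapped that of Mir210. Those of Mir125b-2 and Mir31 lay below it.

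**Figure D2:**
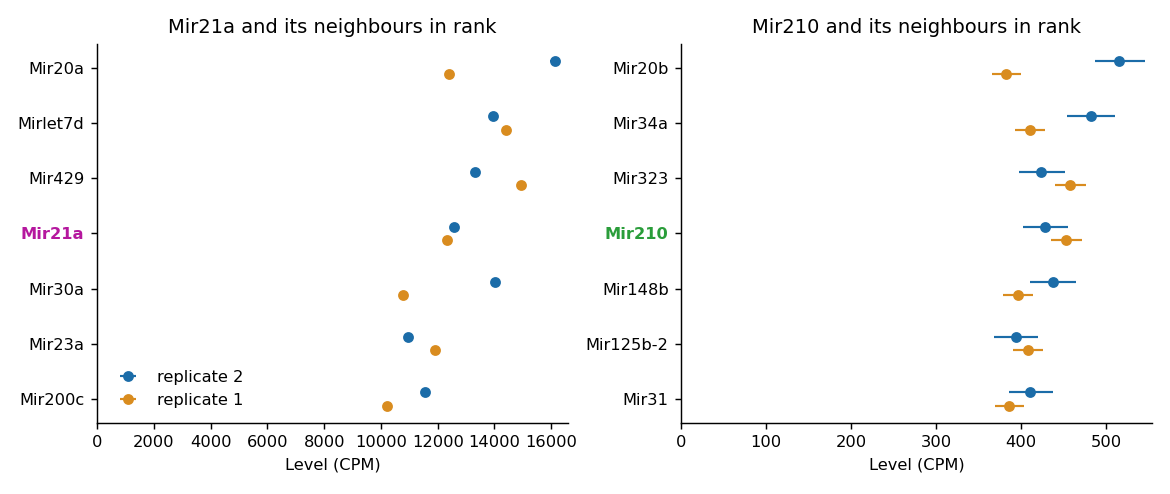
Level in CPM of Mir21a (left) and Mir210 (right) with the 3 genes above and the 3 below each by mean CPM; points are libraries and bars are 95% exact binomial intervals, which are shorter than the points at the level of Mir21a. The libraries of Mir21a (12573 and 12314 CPM) lie closer together than those of its 6 neighbours.

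Between the replicates, Mir21a was among the most even miRNA genes and Mir210 was typical of its abundance. With CPM scaled by TMM (trimmed mean of M-values) and 1 CPM added, the log2 ratio of replicate 2 to replicate 1 was -0.039 for Mir21a (95% exact interval, without the added CPM, -0.059 to -0.019) and -0.15 for Mir210 (-0.26 to -0.043). Both passed an exact two-sided binomial test of counting error, adjusted with Benjamini-Hochberg over 404 genes (adjusted p = 0.000472 for Mir21a and 0.0158 for Mir210). So did 163 of those 404 genes (40.3%), and 136 of the 187 genes of at least 100 CPM (72.7%), so passing it does not set either member apart. The test compares the reads of 2 libraries and not a condition. The direction of Mir21a depends on scaling: with library totals alone its log2 ratio was 0.030 (adjusted p = 0.00886), and that of Mir210 was -0.082 (adjusted p = 0.249). With library totals 177 genes (43.8%) passed, 112 of them higher (27.7%) and 65 lower (16.1%) in replicate 2. With TMM scaling 80 were higher (19.8%) and 83 lower (20.5%).

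When the spread between the libraries (common dispersion from edgeR, a biological coefficient of variation of 18.1%) was added to counting error, neither member passed (edgeR exact test, unadjusted p = 0.917 for Mir21a and 0.689 for Mir210). That spread was estimated from the same pair of libraries, so failing this test says nothing particular about either member. Of the 404 genes 1 passed it, Mir208a (0.248%), and 16 had an unadjusted p under 0.05. Of the 187 genes of at least 100 CPM, 23 had a log2 ratio closer to 0 than Mir21a and 80 had one closer to 0 than Mir210. The median absolute log2 ratio of these genes was 0.16. Among the 20 genes nearest in rank to each, 2 were closer to 0 than Mir21a and 10 were closer than Mir210. All 20 around Mir21a passed the binomial test, and 10 of those around Mir210.

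**Figure D3:**
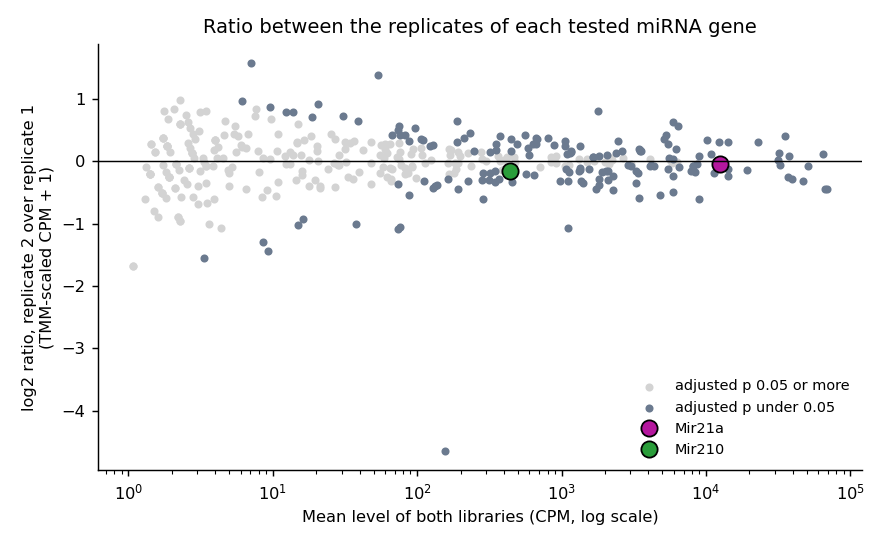
Log2 ratio of replicate 2 to replicate 1 (TMM-scaled CPM plus 1) against mean CPM (log scale) for the 404 tested miRNA genes; dark points passed the exact binomial test at an adjusted p under 0.05. Mir21a (-0.039) and Mir210 (-0.15) lie near the line of no difference, and the lowest point is Mir208a.

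The genes of at least 100 CPM with the log2 ratio nearest to that of Mir21a were Mir382 (-0.040), Mir744 (-0.036) and Mir331 (-0.032). Those nearest to Mir210 were Mir92b, Mir98 and Mir140, each at -0.15. Likeness here is the difference between log2 ratios over 2 libraries, so it describes these samples and no more.

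Mir21a was also one of the most abundant miRNAs that cells are known to regulate with oxygen, whereas Mir210 ranked in the middle of the list as counted. A list of miRNAs described as responding to low oxygen in cultured, mostly human, cells had 25 members in the tables, all with at least 10 counts in both libraries. Together they held 12.2% of counts in replicate 2 and 11.4% in replicate 1, of which Mir21a and Mir210 made up 10.9% in the mean. By mean CPM Mir26b, in an intron of Ctdsp1, led with 32468 ± 276 CPM (SD, n = 2), before Mir23b (32119 ± 3179), Mir21a, Mir23a (11423 ± 663), Mir93 (10139 ± 2020) and Mir181c (5546 ± 353). In replicate 2 Mir23b was above Mir26b (34367.5 against 32663 CPM) and Mir93 above Mir23a (11568 against 10954 CPM). In replicate 1 both pairs stood the other way, so these orders are not settled by 2 libraries. Mir210 came 13th of the 25. Mir107, which lies in a pantothenate kinase gene, stood at 2077 ± 168 CPM, and Mir192, known from gut and kidney, at 74.0 ± 10.6 CPM. For 16 of the 25, though not for Mir21a or Mir210, a run of 20 nt recurs in another listed hairpin, so their counts can miss reads. Most members below Mir210 are among these 16, so its middle place depends on them. Of the members without such a run, only Mir30b (192 ± 20.8 CPM) and Mir192 stood below Mir210.

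Between the replicates, 7 of these 25 miRNAs were higher and 12 lower in replicate 2 by the exact binomial test, against 19.8% and 20.5% of all 404 tested genes. Abundant genes passed more often, 136 of the 187 genes of at least 100 CPM (72.7%) in either direction. The median CPM of the list was 441, and 19 of its 25 members passed, so all 404 genes are a low reference for it. The median log2 ratio of the 25 was -0.12, and that of all tested genes was -0.0068. Of the members that passed, Mir27a (-0.60), Mir181a-2 (-0.40), Mir192 (-0.36) and Mir27b (-0.35) had the lowest ratios, and Mir210 was also lower in replicate 2. Mir181b-2 (0.81), Mir181b-1 (0.65), Mir106a (0.37) and Mir93 (0.34) had the highest. The list therefore did not move one way between the libraries.

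**Figure D4:**
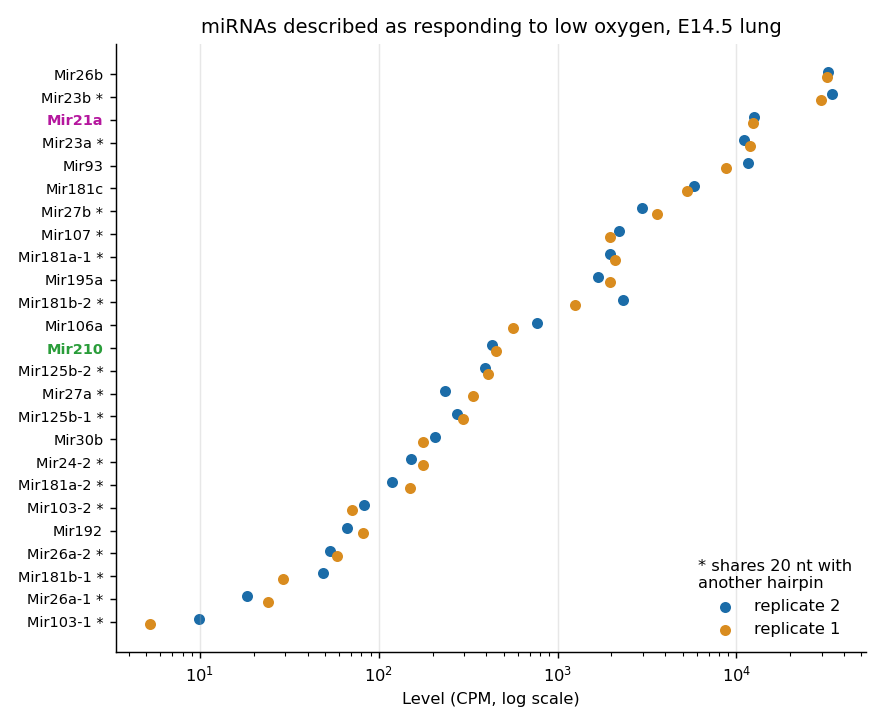
Level in CPM (log scale) of the 25 miRNA genes of the low-oxygen list in replicate 2 and replicate 1, in order of mean CPM; an asterisk marks genes that share 20 nt with another hairpin. Mir21a stands below Mir26b and Mir23b at 12443 CPM and Mir210 is in the middle at 441 CPM.

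Fibrotic adult lung gives a second frame for Mir21a, which is known there as a raised miRNA. Of the 6 listed miRNAs known to be raised in fibrosis, Mir21a was the most abundant in embryonic lung and held 79.3% of their counts. Mir154, from the Dlk1-Dio3 region, followed at 1553 ± 40.02 CPM (SD, n = 2) and the smooth muscle Mir145a at 1502 ± 45.8 CPM. The order of Mir154 and Mir145a differed between the libraries. Mir199a-2 (107 ± 22.8), the immune Mir155 (76.0 ± 18.1) and Mir199a-1 (7.04 ± 5.82) were far lower, and both Mir199a genes carry the same mature sequence and lose reads. The 17 listed miRNAs known to be reduced in fibrosis together held 7.95% of counts in replicate 2 and 6.75% in replicate 1. They were led by Mir30e (23033 ± 4272), Mirlet7d (14184 ± 316), Mir30a (12396 ± 2287) and Mir200c (10881 ± 969). The miR-29 genes, which restrain collagen genes, stood between 0.624 CPM for Mir29b-2 and 97.6 CPM for Mir29a. Mir29b-1, Mir29b-2 and Mir29c share 20 nt with another hairpin, so their levels can be too low, and that of Mir29a is not limited in this way. Of the 23 genes of this list 21 were tested between the replicates. By the exact binomial test 8 were higher and 3 lower in replicate 2, and the other 10 did not pass, against 19.8% higher and 20.5% lower of all 404 tested genes. Here too passing depends on abundance: 11 of the 21 passed in all, and the median CPM of the 23 genes was 107. The median log2 ratio of the 21 was 0.037, and that of all tested genes was -0.0068.

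**Figure D5:**
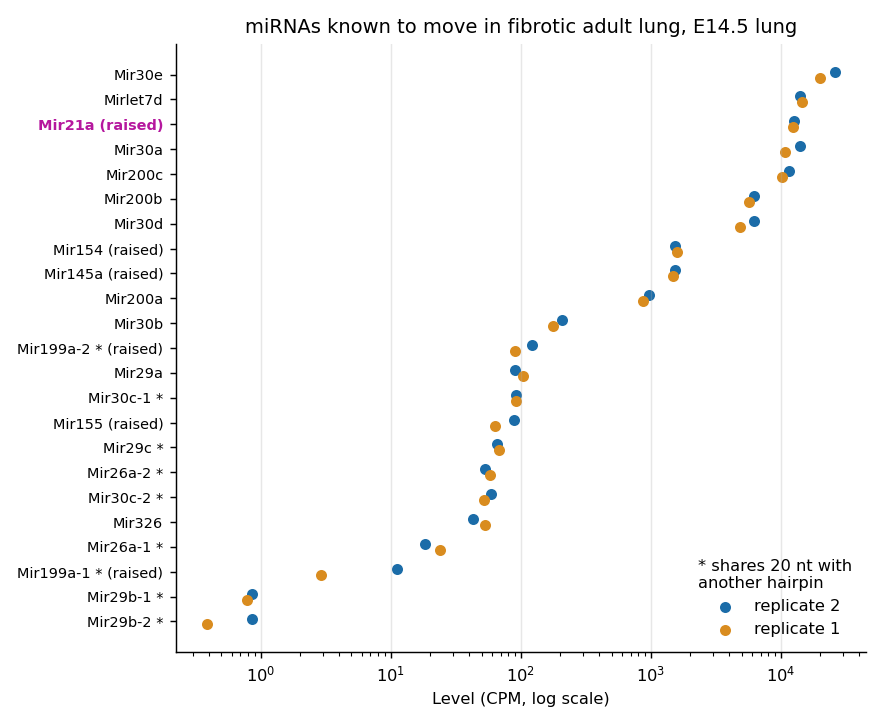
Level in CPM (log scale) of the 23 miRNA genes of the lung fibrosis list in replicate 2 and replicate 1, in order of mean CPM; "raised" marks the 6 known to rise in fibrotic adult lung, the others are known to fall, and an asterisk marks genes that share 20 nt with another hairpin. Mir21a, at 12443 CPM, stands above the other 5 raised miRNAs.

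Messenger RNAs were not measured, but the sites that the seeds can pair with can be read from the mm10 annotation. The letters opposite bases 2 to 8 are ATAAGCT for miR-21a-5p and ACGCACA for miR-210-3p. They were searched on the transcript strand of the longest annotated 3′ UTR of each protein-coding gene, and the 2 motifs do not overlap each other. ATAAGCT was held by 7.18% of 21020 genes, among them Pdcd4, Spry1, Spry2 and Reck, which are known as targets of miR-21. Of 8 genes known as targets of miR-210, 3 held ACGCACA, namely Efna3, Gpd1l and Hif3a, against 3.07% of all genes. No match was found in Iscu, Ptpn1, Cox10, Sdhd or Ndufa4 for miR-210-3p, which says only that these letters are not in those 3′ UTRs. Known targets were in part found through such matches, so these matches are a description. The sites below are shown as examples for each miRNA, with the match in capitals, in the growth-restraining gene Pdcd4, in Reck, an inhibitor of matrix metalloproteinases, and in the ephrin gene Efna3.

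Pdcd4, chr19:53929417-53929439, plus strand: agtgtgggtgttctgATAAGCTa

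Reck, chr4:43944392-43944414, plus strand: gttttacagtttgaaATAAGCTa

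Efna3, chr3:89314665-89314687, minus strand: gacaggacctatgcaACGCACAg

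Reads of both members came from the annotated strand. Opposite-strand counts of Mir21a were 0 in replicate 2 and 2 in replicate 1, and those of Mir210 were 0 in both. This was usual: 163 of the 187 genes of at least 100 CPM had no opposite-strand count, and 177 had 3 or fewer.

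Marker miRNAs gave the tissue as a mixture, and none of those listed is restricted to lung. All 5 epithelial miR-200 genes were present (33730 CPM in sum in replicate 2 and 33294 in replicate 1), as were the endothelial Mir126a (58438 and 76032) and the smooth muscle genes Mir143 and Mir145a (62023 and 79791 in sum). Red blood cell markers summed to 392 and 497 CPM, and the liver Mir122 stood at 39.5 and 22.4. The 4 white blood cell markers summed to 662 and 691 CPM. Mir142b, 1 of the 4, had 0 gene-strand counts in both libraries, and opposite-strand counts are not part of the sum of the 4. Mir142 was not among the counted genes, so its level was not read here. Of 5 neuronal markers 4 had 0 counts in both libraries; all 5 share 20 nt with another hairpin. The 7 striated muscle markers summed to 54.9 CPM in replicate 2 and 368 in replicate 1, of which Mir208a alone gave 11.6 and 299 CPM (27 and 1533 counts). Mir208b and Mir499 were also lower in replicate 2 by the exact binomial test, while Mir206 was higher (12.9 and 6.24 CPM). Mir133a-1 and Mir133a-2 had 0 counts in both libraries, and both share 20 nt with another hairpin. Without that list in the denominator Mir21a stood at 12446 CPM and Mir210 at 441 CPM. The part of the other cell types in the levels of Mir21a and Mir210 was not tested.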

How the data were processed

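For each library the authors deposited whole-number read counts per miRNA gene, without regard to strand, on the strand of the gene and on the opposite strand, the last 2 of which sum to the first. Per the deposited readme, they derive from mm10 alignments with GENCODE M4. Aligner, counter and trimming: not given in the sources used here. Unmapped (11.7% of reads in replicate 2 and 12.7% in replicate 1), multimapping (33.1% and 32.9%), no-feature (3.93% and 4.10%) and ambiguous reads (0%) name no gene and stayed out. Replicate 2 held 4544184 reads and replicate 1 10200412; 1 count was 0.429 and 0.195 CPM. Of 1973 identifiers 1894 matched GENCODE M21, and 0 columns went unused for lack of a sample.

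CPM, exact (Clopper-Pearson) 95% intervals and ratios were computed from gene-strand counts. Genes of at least 10 counts over both libraries entered an exact binomial test, two-sided, with library sizes scaled by TMM over those genes and Benjamini-Hochberg adjustment at 0.05. That gene set for the TMM factors was chosen after seeing the data, when factors from all genes gave more false calls on simulated counts. Named genes were the members, those sharing a seed, 3 neighbours in rank each side, the 3 nearest log2 ratios, the 6 most abundant of each list, chromosome neighbours and the 3 highest genes with CAGAC. Genes outside that rule were chosen after their values were seen. The members and lists, known targets included, were chosen with earlier results of these data known. P-values of the exact binomial test measure counting error only. Those with the common dispersion added also cover the spread between these samples, which may be technical. The count of sites over the listed miR-21 targets is not reported here. Alternatives were other scalings, filters, denominators, pseudocounts and columns. Software was R 4.3.3, edgeR 4.0.16, DESeq2 1.42.0 (size factors only) and Python 3.11.15 with scipy 1.17.1.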

Additional observations from a re-analysis of the deposited data

How the results depend on the processing

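No paired analysis was possible because the libraries form 1 group. Of 63 values under other settings, over 10 results, 41 stayed as they were. Tested ratios kept their direction and side of the threshold. Counts of genes passing were judged by their ratio to 163, without an SD. Other values moved by less than 1 SD. Part of this was fixed in advance. With 2 libraries, leaving out a replicate always moves a mean by less than 1 SD. A pseudocount can change neither the direction of a ratio nor its binomial p. The count of genes passing, 163 of 404, ran between 161 and 180 in 7 settings, but the number tested differed. It was 161 of 688 with a minimum of 1 count, 168 of 272 with 100 counts and 180 of 413 in the unstranded column. The share passing was therefore not stable. The log2 ratio of Mir21a between replicates reversed to 0.030 (adjusted p = 0.00886) with library totals. It was -0.014 (adjusted p = 0.280) with TMM factors from genes of at least 100 counts, an alternative chosen after seeing the data, and -0.039 (adjusted p = 1, edgeR exact test) with the common dispersion added. That of Mir210 no longer passed at -0.082 (adjusted p = 0.249) with library totals, -0.13 (adjusted p = 0.0505) with those TMM factors and -0.15 (adjusted p = 1) with the dispersion. With TMM factors from all genes the log2 ratio was -0.059 for Mir21a and -0.17 for Mir210, and 169 genes passed. The adjusted p under the other settings ran up to 0.00629 for Mir21a and 0.0264 for Mir210. With the dispersion added, 1 gene passed, against 163, since that test allows for the spread between the libraries and not for counting error alone. The cause of that spread was not tested. Mir210 was lower in replicate 2 under every scaling run.

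Without Mir143 in the denominator Mir21a was at 13371 CPM and Mir210 at 474 CPM; with multimapping, no-feature and ambiguous reads they were at 7197 and 255 CPM, since the denominator is larger; the unstranded column gave 12091 CPM for Mir21a. Rank 18 of Mir21a became 17 and rank 132 of Mir210 became 115 among genes that share no 20 nt, and Mir210 had rank 141 in the unstranded column. Leaving out each replicate gave 12314 to 12573 CPM and ranks 18 to 19 for Mir21a, 428 to 453 CPM and ranks 128 to 132 for Mir210, and 4.76 to 4.88 for the log2 ratio of the genes. List shares then ran from 11.4% to 12.2% for low oxygen and from 8.30% to 9.54% for fibrosis. The low-oxygen share of 11.8% was 8.55% without Mir26b, 6.38% over members without shared sequence and 10.5% without Mir21a and Mir210. The fibrosis share of 8.92% was 6.61% without Mir30e and 7.67% without Mir21a. At this depth the counting error of Mir210 was 3.16% in replicate 2 and 2.07% in replicate 1, against 0.584% and 0.398% for Mir21a.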

Other observations

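The letters CAGAC occur once in miR-21a-5p, from base 9, and in neither arm of Mir210. In human smooth muscle cells this motif is known as a site where SMAD proteins of the transforming growth factor beta and bone morphogenetic protein pathways touch primary miRNA transcripts and raise their processing.

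miR-21a-5p with the motif in capitals: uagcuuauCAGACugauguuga

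Searched on the RNA strand only, CAGAC was found in 32 of 1738 mature miRNAs (1.84%) and in 80 of 1005 hairpins (7.96%) of the RefSeq table. Among detected genes (10 counts or more in each library) 293 had a mature sequence in that table, and 6 of them (2.05%) held the motif there. The 3 highest by mean CPM were Mir429 (14134 ± 1153 CPM, SD, n = 2), Mir21a (12443 ± 184) and the mesenchymal Mir214 (8920 ± 692). The motif lies in miR-429-5p, miR-21a-5p and miR-214-3p. These levels are of whole genes, so the level of the arm that holds the motif is not known. A match is a description of sequence, and whether SMAD proteins act on any of these genes in embryonic lung was not tested.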
